A study of Mus musculus with 24 samples.

Results

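Imprinted genes are transcribed from only 1 of the 2 parental copies. The 10 genes described here belong to a group of imprinted genes often studied together, and they were selected on a measured value, the level of Meg3, a maternally expressed long non-coding RNA, which was higher in the choroid of Ceacam1-/- mice than of wild type mice after laser treatment. They are Meg3, Rian, Mirg, Dlk1, H19, Igf2, Peg3, Mest, Plagl1 and Cdkn1c, and all 10 were found by symbol among the 56065 genes of the deposited table of normalized counts. Because of this, the comparison of genotypes with laser is given below as a description without a test.

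The 24 libraries of choroidal RNA form 4 groups, with 4 wild type and 4 Ceacam1-/- libraries without laser and 9 wild type and 7 Ceacam1-/- libraries with laser. Ceacam1-/- mice lack exons 1 and 2 of Ceacam1, which encodes a cell adhesion molecule of endothelial and myeloid cells. The controls were wild type littermates from the same heterozygous matings, all mice were on a C57BL/6J background, and the age given for the study's mice, where not stated otherwise, was 6 to 8 weeks. Laser treatment, a way of inducing new vessels to grow from the choroid, placed 6 spots of 150 mW, 200 µm and 100 ms in each eye with a frequency-doubled Nd:YAG laser, and the time between laser and dissection was not given in the sources used here. Summed normalized counts ranged from 23979741 to 27093809 in wild type libraries without laser, from 23819561 to 35094410 in Ceacam1-/- libraries without laser, from 23717571 to 28563124 in wild type libraries with laser and from 23704346 to 25940731 in Ceacam1-/- libraries with laser.

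At the Dlk1 to Dio3 locus of chromosome 12, the maternal copy gives rise to Meg3, Rian, Mirg and a large set of small RNAs, while the paternal copy gives rise to Dlk1, which encodes a transmembrane protein related to Notch ligands. At the distal end of chromosome 7, H19, a non-coding RNA, and Cdkn1c, which encodes a cyclin-dependent kinase inhibitor, are expressed from the maternal copy and Igf2, which encodes a growth factor, from the paternal copy. Peg3 and Plagl1 encode zinc finger proteins and Mest encodes a protein with a hydrolase fold, and these are paternally expressed. Several of these genes are high in fetal tissues and fall after birth.

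The sequence before the start of Meg3 is shown because the selection rests on this gene. The window of 250 bases upstream of the RefSeq start, chr12:109540746-109540995 on the plus strand of GRCm38.p6, holds in capitals the letters TGACGTCA, the form of a cyclic AMP response element, and TTTATATAAA, in which the TATA box letters TATAAA occur on both strands and overlap.
Meg3 upstream window: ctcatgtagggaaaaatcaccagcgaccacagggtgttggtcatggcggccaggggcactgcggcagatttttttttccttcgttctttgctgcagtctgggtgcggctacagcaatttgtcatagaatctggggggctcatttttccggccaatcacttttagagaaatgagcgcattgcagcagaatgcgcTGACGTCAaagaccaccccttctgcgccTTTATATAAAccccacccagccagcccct
Searched on both strands, TGACGTCA was present in 1.55% and TATAAA in 12.4% of 32851 RefSeq windows of this length. The TGACGTCA match ended 49 bases and the TATAAA match 19 bases before the start. The window held 10 CpG dinucleotides, against a median of 6 in all windows, and 37.8% of windows held at least as many. RefSeq lists a second start of Meg3, and the window before it, chr12:109545148-109545397, held 0 CpG dinucleotides and no match to either motif. The windows of Rian and Mirg held no match either.

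Mirg and H19 are also host transcripts of miRNAs, short RNAs that pair with messenger RNAs mainly through the seed, bases 2 to 8. RefSeq placed 19 mature miRNAs inside Mirg, 6 inside Rian, 55 between Rian and Mirg and 2 inside H19. Those of Mirg that share a seed with another miRNA of the locus, and both of H19, are printed to show what the hosts encode, with the seed in capitals.
mmu-miR-453 (Mirg): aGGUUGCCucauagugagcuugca
mmu-miR-496a-5p (Mirg): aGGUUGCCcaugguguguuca
mmu-miR-410-5p (Mirg): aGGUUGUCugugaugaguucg
mmu-miR-494-5p (between Rian and Mirg): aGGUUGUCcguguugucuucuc
mmu-miR-675-5p (H19): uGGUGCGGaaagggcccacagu
mmu-miR-675-3p (H19): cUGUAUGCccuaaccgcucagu
The first pair shares the seed GGUUGCC and the second pair GGUUGUC. These libraries were made from messenger RNA and did not measure mature miRNAs. Of the 90 miRNA and small nucleolar RNA genes of the locus in the table, 21 were above 0 in any library, and the highest mean over the 24 libraries was 0.394.

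Ceacam1 itself was examined first. Without laser it was at 958, 5027, 1242 and 4596 normalized counts in wild type and at 405, 505, 508 and 1171 in Ceacam1-/- libraries. With laser it ranged from 774 to 8367 (median 996) in wild type and from 67.8 to 905 (median 335) in Ceacam1-/- libraries. The genotypes overlapped in both settings, through the libraries labelled Ceacam1-/- number 28 without laser and number 15 with laser. Gene counts include exons outside the deletion, so they are a partial check of the genotype labels. Differences that moved without these libraries are given below for several of the 10 genes.

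The libraries with laser carry numbers 1 to 7 and 11 to 19 and those without laser 21 to 28, and the labels do not say what these runs of numbers stand for. No run holds libraries both with and without laser, so in every comparison of laser with no laser the treatment and the run cannot be told apart. The Ceacam1-/- libraries of the second run (14, 15 and 18) stood apart. Their summed photoreceptor markers (7 genes, Gnat1 the most abundant) were 275870 to 490644 normalized counts, against 4186 to 70695 in Ceacam1-/- libraries 4 to 7 and 3864 to 97027 in wild type libraries with laser. Their summed inner retina neuron markers (8 genes, Snap25 the most abundant) were 30796 to 78146, against 2234 to 10265 in libraries 4 to 7 and 1942 to 16051 in wild type libraries with laser. Their summed fibroblast and sclera markers (8 genes, Col1a1 the most abundant) were 46458 to 116692, against 445842 to 706396 in libraries 4 to 7. Without laser, photoreceptor markers were also high in library 21 of wild type (261287) and library 23 of Ceacam1-/- mice (283054). None of these markers was at 0 in every library of a group, and markers of the choroid were present in the Ceacam1-/- libraries with laser. They were lower in libraries 14, 15 and 18 than in libraries 4 to 7. The 6 melanocyte genes summed to 9878 to 27948 against 93705 to 186924, and the 8 endothelial genes to 9255 to 18846 against 28597 to 44223. Myeloid markers summed to 15605 to 26308 against 60866 to 87964, and pigment epithelium markers to 35380 to 57904 against 120809 to 206263. Between the groups with laser, summed skeletal muscle markers (8 genes, Acta1 the most abundant) were 117470 ± 70175 (SD, n = 7) in Ceacam1-/- and 261714 ± 94825 (SD, n = 9) in wild type libraries, with a median log2 difference of the 8 genes of -1.35. The muscle progenitor markers (6 genes, Myh3 the most abundant) were at 2695 ± 1921 and 11401 ± 7612, with a median of -2.11, and the median was -1.12 for 8 pigment epithelium markers (Ttr the most abundant). In bulk RNA, fewer cells of a type and less RNA per cell cannot be told apart.

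Meg3 was high in all groups other than wild type with laser. This RNA, which lies at chr12:109506877-109538165 on the plus strand of GRCm39, was at 6335, 4901, 5532 and 5135 normalized counts in wild type and at 5646, 4969, 5098 and 8604 in Ceacam1-/- libraries without laser. With laser it ranged from 2498 to 5296 (median 3777, n = 9) in wild type and from 4896 to 8199 (median 7528, n = 7) in Ceacam1-/- libraries. With laser, 6 of 7 Ceacam1-/- libraries were above every wild type library, and library 6 (4896) lay below library 3 of wild type (5296).

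The mean with laser was 6985 ± 1341 (SD, n = 7) in Ceacam1-/- and 3723 ± 990 (SD, n = 9) in wild type libraries, a log2 difference of 0.93 with a standard error of 0.18 on the log2(value + 1) scale, or 1.9-fold. This is the contrast by which Meg3 was chosen, and limma, with Benjamini-Hochberg adjustment, called 0.0202% of 19757 genes in it (4 genes). That number depended on the fit, with 3863 genes called with the run of library numbers as a term, 0 within libraries 1 to 7, 7552 of 19934 within libraries 11 to 19, 297 with array weights and 61 without library 19. The difference was 0.66 within libraries 1 to 7 and 1.13 within libraries 11 to 19, and in the second run the genotypes did not overlap (6056 to 8148 against 2498 to 4737), beside 19.5% of 19934 genes that were higher without overlap there. Leaving out library 15 gave 0.96 and leaving out library 6 gave 1.01. The muscle, photoreceptor and inner retina neuron markers given above differ between the same groups, and their part in the difference was not tested.

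**Figure D1:**
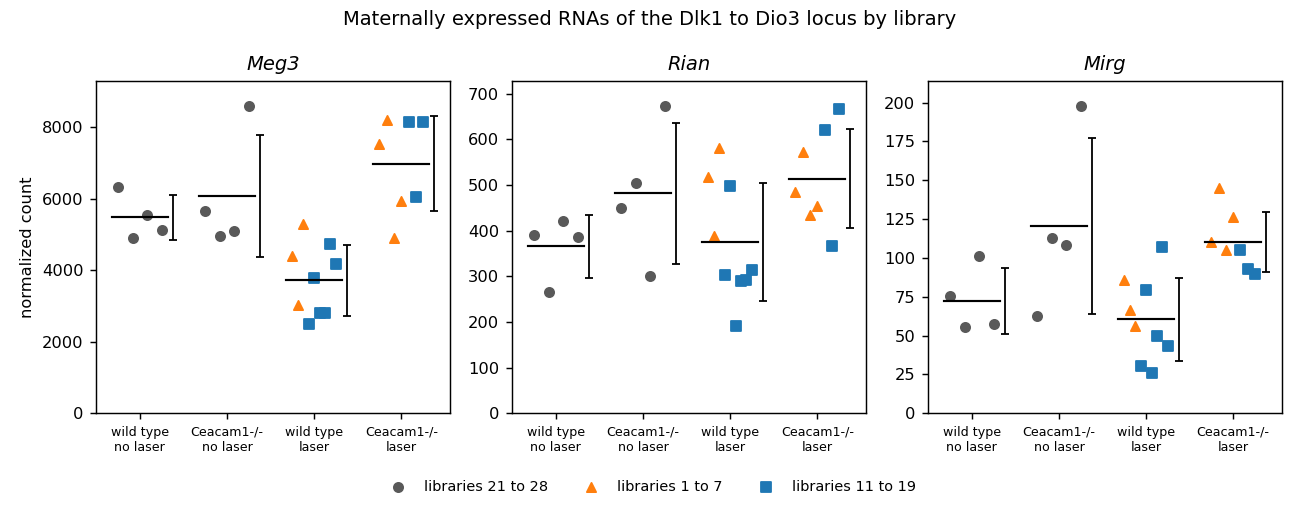
Normalized counts of Meg3, Rian and Mirg in each of the 24 libraries by group, on linear axes from 0. Points are libraries, their shape and colour give the run of library numbers, horizontal lines are group means and the bars beside them 1 SD; Meg3 of Ceacam1-/- libraries with laser lay between 4896 and 8199, and 6 of 7 were above all wild type libraries with laser.

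Without laser, Meg3 did not differ detectably between genotypes. The means were 6079 ± 1709 (SD, n = 4) in Ceacam1-/- and 5476 ± 629 (SD, n = 4) in wild type libraries, and the log2 difference was 0.12 with a standard error of 0.22 (limma, adjusted p = 0.999). An exact two-sided permutation test of the same 8 values gave p = 0.657, where the smallest p that 70 splits allow is 0.0286. The library labelled Ceacam1-/- number 28 (8604) was above all others, and without it the log2 difference was -0.06.

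Set against libraries without laser, the wild type libraries with laser were low in Meg3 and the Ceacam1-/- libraries were not. In wild type, 8 of 9 libraries with laser were below all 4 without laser, and the log2 difference was -0.60 with a standard error of 0.20. In Ceacam1-/- mice it was 0.21 with a standard error of 0.21, and 0.39 without library 28. Both differences share their libraries with laser with the contrast that chose Meg3, so they are given without a test, and the interaction of genotype and laser was not tested for the same reason.

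Rian, the host of small nucleolar RNAs and miRNAs downstream of Meg3, and Mirg, the miRNA host beyond it, were examined next. Rian was at 390, 265, 421 and 386 normalized counts in wild type and at 450, 505, 300 and 674 in Ceacam1-/- libraries without laser, and ranged with laser from 192 to 582 (median 313) in wild type and from 366 to 666 (median 485) in Ceacam1-/- libraries. Mirg was at 75.3, 55.2, 101 and 57.6 in wild type and at 62.5, 113, 108 and 198 in Ceacam1-/- libraries without laser, and ranged with laser from 26.2 to 107 (median 56.1) and from 89.9 to 145 (median 105). The genotypes overlapped for both RNAs in both settings, although 7 of 7 Ceacam1-/- libraries with laser were above the wild type median for each.

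With laser, the log2 difference between genotypes was 0.50 (SE 0.22) for Rian and 0.97 (SE 0.28) for Mirg. Within the runs of library numbers it was -0.02 and 0.81 for Rian and 0.81 and 0.94 for Mirg, so that the Rian difference was carried by libraries 11 to 19. Without laser it was 0.36 (SE 0.29) for Rian and 0.65 (SE 0.41) for Mirg, and neither passed the test (limma, adjusted p = 0.999 for both). Leaving out library 28 gave 0.18 for Rian and 0.38 for Mirg, and leaving out library 23 gave 0.38 for Rian and 0.93 for Mirg. Laser was not followed by a detectable change of either RNA. The log2 differences in wild type were -0.02 for Rian and -0.34 for Mirg (limma, adjusted p = 0.973 and 0.583). In Ceacam1-/- mice they were 0.12 and -0.02 (limma, adjusted p = 0.827 and 0.977). With 1 library left out, Mirg in wild type lay between -0.46 and -0.17, and quantile normalization gave -0.15.

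Between the start of Dlk1 and the end of Dio3 (chr12:109418749-110247531 of GRCm39), 128 genes are annotated and 116 were in the table. Of these, 38 were above 0 in any library and 8 had a mean of at least 10. Meg3 took most of the summed normalized counts of the interval in each group, 84.3% ± 3.5 (SD, n = 4) and 81.5% ± 2.54 (SD, n = 4) without laser and 78.5% ± 3.83 (SD, n = 9) and 83.4% ± 3.29 (SD, n = 7) with laser, for wild type and Ceacam1-/- libraries respectively. Rian stood at 10.2% ± 2.68 (SD, n = 9) of Meg3 in wild type with laser and at 7.40% ± 0.991 (SD, n = 7) in Ceacam1-/- with laser. Without laser the order was the other way, with 6.67% ± 1.07 in wild type and 7.97% ± 1.77 in Ceacam1-/- libraries (SD, n = 4 each), and the ranges overlapped in both settings. The shares with laser contain the Meg3 values by which Meg3 was chosen. Their difference between genotypes is therefore not separate from the selection, and nothing is read from it.

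A pair of transcripts between Rian and Mirg, Gm37899 and the long non-coding RNA B830012L14Rik, overlap each other in position and lie on the strand of Meg3. Gm37899 ranged with laser from 58.2 to 207 (median 108) in wild type and from 182 to 277 (median 214) in Ceacam1-/- libraries, a log2 difference of 1.06 (SE 0.23), while without laser it was 0.15 (SE 0.33, limma, adjusted p = 0.999). B830012L14Rik ranged with laser from 28.8 to 144 (median 75.3) and from 65.6 to 166 (median 149), a log2 difference of 0.78 (SE 0.29), against -0.26 (SE 0.31, limma, adjusted p = 0.999) without laser. With laser the genotypes overlapped for both.

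The paternally expressed genes of the locus are Dlk1, Rtl1 and Dio3. Rtl1, which encodes a retrotransposon-derived protein and runs antisense to part of Rian, had medians of 17.2 and 31.8 normalized counts in wild type and Ceacam1-/- libraries without laser and of 22.9 and 27.2 with laser. Its log2 difference between genotypes with laser was 0.31 (SE 0.40), of the same sign as those of Meg3 and Rian, and whether it differed from theirs was not tested. Reads of the stretch shared with Rian cannot be told apart without strand, so the values of Rtl1 may hold reads of Rian. Dio3, which encodes a deiodinase that inactivates thyroid hormone, was between 0.0 and 14.8 in all libraries, too low to be tested. Dlk1 is described with the genes of chromosome 7 below, because its values rose and fell over libraries with theirs.

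Without laser, none of the 10 genes passed the test between genotypes. Limma called 0 of the 10, beside 0.0% of 20057 genes tested, and an unadjusted p under 0.05 was found for 0 of the 10 and for 307 (1.53%) of all genes tested. The deleted gene itself did not pass either, with a log2 difference of Ceacam1 of -1.95 (SE 0.60, unadjusted p = 0.00988, limma, adjusted p = 0.999). The study did report differentially expressed genes between these genotypes in healthy choroid, from DESeq2 with sex as a covariate. The absence of calls holds for the limma fit used here. The median log2 difference of the 10 was 0.22, beside -0.02 over all genes tested. Igf2 had the lowest unadjusted p of the 10 (0.0588), at 438, 584, 928 and 462 normalized counts in wild type and 786, 669, 1111 and 1081 in Ceacam1-/- libraries, a log2 difference of 0.63 (SE 0.29, limma, adjusted p = 0.999). Dlk1 was at 205, 267, 582 and 259 in wild type and at 244, 440, 431 and 860 in Ceacam1-/- libraries, which overlapped (log2 difference 0.57, SE 0.44, limma, adjusted p = 0.999). Leaving out library 28 gave 0.25 for Dlk1, 0.15 for H19 in place of 0.31 and -0.39 for Cdkn1c in place of -0.24. It turned the sign of Mest (0.02 in place of -0.23) and of Plagl1 (-0.03 in place of 0.11). Leaving out library 23 of Ceacam1-/- mice, which was high in photoreceptor markers, gave 0.86 for Dlk1, 0.92 for H19 and 0.11 for Cdkn1c. Limma called 0 of the 10 there too.

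With laser in wild type mice, Mest was the member that passed the test. It was at 2613, 1351, 2908 and 3011 normalized counts without laser and ranged from 2693 to 7565 (median 5625, n = 9) with laser, where 8 of 9 libraries were above all 4 without laser. The means were 2471 ± 765 (SD, n = 4) and 5193 ± 1722 (SD, n = 9), and the log2 difference was 1.06 (SE 0.29, limma, adjusted p = 0.036). Leaving out 1 library at a time gave adjusted p between 0.016 and 0.171, above 0.05 in 8 of 13 cases. It was 0.0661 with a Y-linked covariate, added because the labels do not give the sex of the mice. Mest overlaps Copg2 (mean 880) on the opposite strand, and reads of the overlap cannot be told apart without strand. Of the 9 genes tested, 1 was higher and 0 were lower, beside 4.23% and 1.05% of 19950 genes.

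H19 and Plagl1 were higher with laser in most wild type libraries but did not pass the test. H19 was at 375, 1183, 1801 and 1518 without laser and ranged from 1709 to 5678 (median 2817) with laser, with 8 of 9 libraries above all without laser (log2 difference 1.63, SE 0.58, limma, adjusted p = 0.107). Plagl1 was at 541, 576, 1061 and 656 without laser and ranged from 966 to 2349 (median 1217) with laser, again with 8 of 9 libraries above (0.94, SE 0.34, limma, adjusted p = 0.117). Each passed the test when only the wild type libraries were fitted, with adjusted p = 0.0163 for H19 and 0.0182 for Plagl1.

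The remaining members moved less with laser in wild type. Igf2 ranged from 584 to 1335 (median 1019) and Cdkn1c, the kinase inhibitor, from 3979 to 8172 (median 5314), against 2464, 4054, 5511 and 3048 for Cdkn1c without laser. The log2 differences were 0.71 (SE 0.39) for Igf2 and 0.56 (SE 0.49) for Cdkn1c, with adjusted p of 0.322 and 0.532 in limma. Peg3 was at 3370, 2284, 2157 and 2869 without laser and between 2017 and 3963 (median 3008) with laser, and Dlk1 was between 147 and 639 (median 273) with laser. Their log2 differences were 0.14 (SE 0.21) and -0.06 (SE 0.60), with adjusted p of 0.727 and 0.962 in limma.

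**Figure D2:**
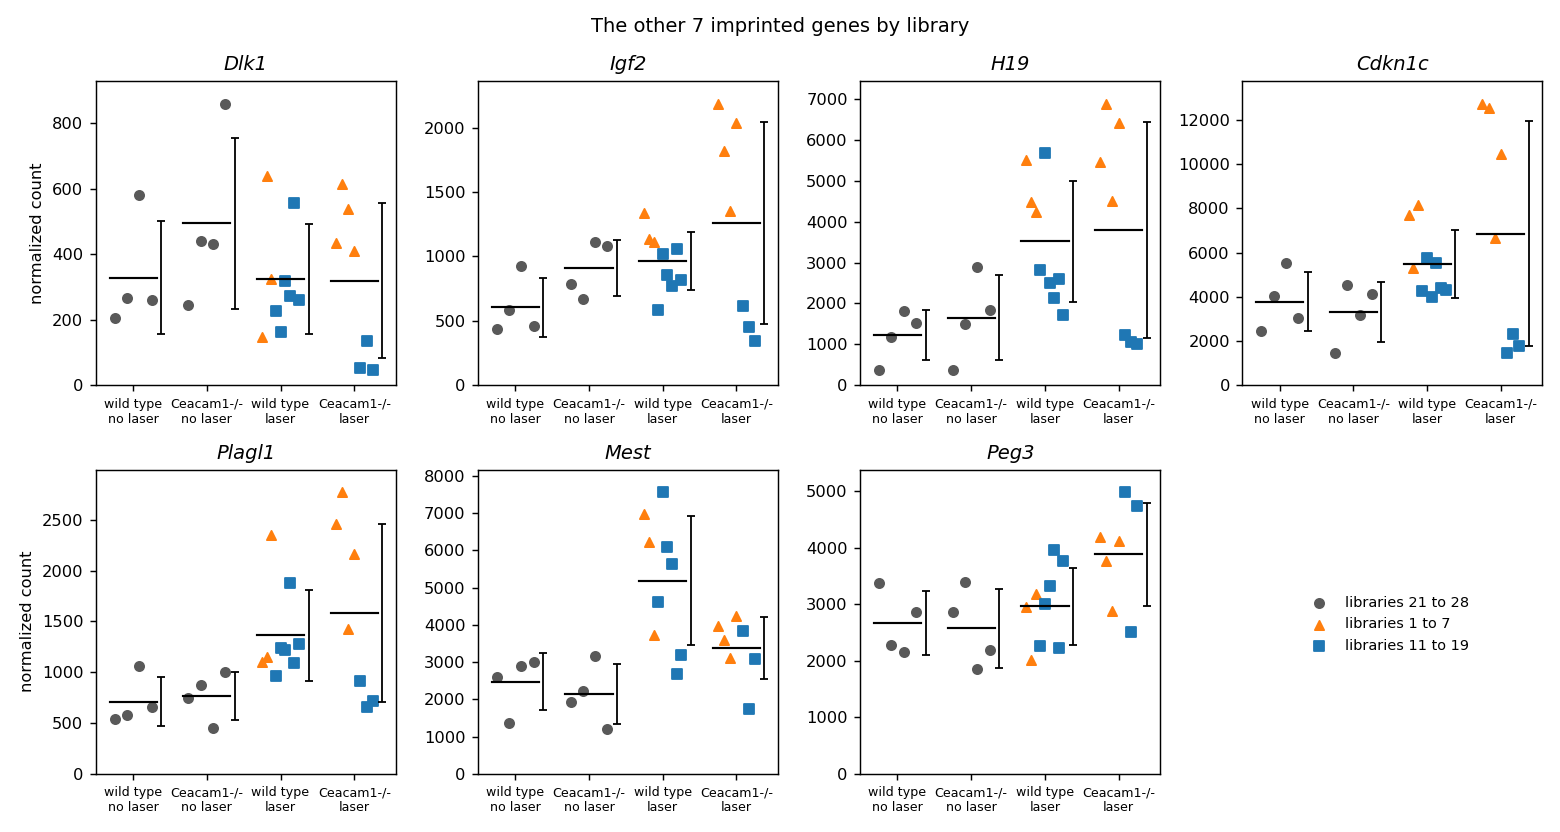
Normalized counts of Dlk1, Igf2, H19, Cdkn1c, Plagl1, Mest and Peg3 in each library by group, on linear axes from 0, with group means as horizontal lines and 1 SD as bars. The Ceacam1-/- libraries with laser of the second run of library numbers (squares) lay below those of the first run (triangles) for Dlk1, Igf2, H19, Cdkn1c and Plagl1, while for Peg3 and Mest the runs overlapped.

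In Ceacam1-/- mice, 0 of 9 members were called with laser, beside 3.72% of 19950 genes, and 3 of 9 had an unadjusted p under 0.05 in limma, beside 20.0% of all genes. These were Peg3 (log2 difference 0.60, SE 0.22, adjusted p = 0.124), Plagl1 (0.89, SE 0.36, adjusted p = 0.162) and Mest (0.69, SE 0.31, adjusted p = 0.206, and 0.45 without library 28). Peg3, a regulator of fetal growth and maternal behaviour, was at 2856, 3402, 1853 and 2182 without laser and ranged from 2515 to 4984 (median 4118) with laser, with 5 of 7 libraries above all without laser. Mest was at 1934, 2235, 3162 and 1206 without laser and ranged from 1738 to 4249 (median 3607) with laser.

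For Cdkn1c, H19, Dlk1, Igf2 and Plagl1 the Ceacam1-/- libraries with laser split by run of library numbers, all lower in the second. Such a split was common, with 21.3% of 20115 genes lower without overlap in libraries 14, 15 and 18 than in libraries 4 to 7, and 46.9% without overlap in either direction. Cdkn1c was at 12747, 12537, 6666 and 10459 normalized counts in libraries 4 to 7 and at 1455, 2329 and 1768 in libraries 14, 15 and 18, and without laser at 1452, 4522, 3178 and 4116. H19 was at 5465, 6894, 4505 and 6424 in libraries 4 to 7 and at 1218, 1061 and 1002 in the other run, and without laser at 365, 1497, 2889 and 1829. Dlk1 was at 435, 613, 539 and 409 and then at 52.2, 133 and 46.2. The runs of these 3 genes did not overlap.

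Igf2 was at 2188, 1823, 1352 and 2037 in libraries 4 to 7 and at 613, 450 and 342 in libraries 14, 15 and 18. Plagl1, a zinc finger protein that restrains cell division and is regarded as a regulator of other imprinted genes, was at 2459, 2772, 1421 and 2164 and then at 914, 656 and 712, against 748, 874, 453 and 1005 without laser. Meg3 did not share the split, at 7528, 8199, 4896 and 5929 in libraries 4 to 7 and at 8148, 6056 and 8138 in the other run. Rian, Mest and Peg3 overlapped between the runs as well, and Mirg, at 105 to 145 in the first run and 89.9 to 105 in the second, was barely apart.

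The difference with laser in Ceacam1-/- mice had another size in each run, and for several genes another sign. Against the same 4 libraries without laser, the log2 difference of Cdkn1c was 1.75 with libraries 4 to 7 and -0.74 with libraries 14, 15 and 18. It was 2.14 and -0.26 for H19, 1.03 and -0.97 for Igf2 and 0.14 and -2.69 for Dlk1, and 1.53 and 0.03 for Plagl1. Limma called 4 of 9 members with libraries 4 to 7 (H19, Igf2, Plagl1 and Cdkn1c, all higher, beside 5.72% of 19885 genes called higher) and 2 of 9 with the other run (Dlk1 and Igf2, both lower, beside 8.60% of 20070 genes called lower). In wild type it called 3 of 9 with libraries 1 to 3 (H19, Igf2 and Mest, all higher, beside 4.99% of genes) and 0 of 9 with libraries 11 to 19, beside 3.72% of genes in either direction. These splits were made after the values were seen.

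Between genotypes with laser, given as a description, the same 5 genes were higher in Ceacam1-/- libraries of the first run and lower in those of the second. The log2 difference was 0.56 and -1.36 for Cdkn1c, 0.29 and -1.30 for H19, 0.61 and -0.87 for Igf2, 0.66 and -2.0 for Dlk1 and 0.57 and -0.73 for Plagl1, in libraries 1 to 7 and 11 to 19 respectively. Over all 16 libraries they lay between -0.44 and 0.10, and between -0.33 and 0.29 without library 15. With array weights, which give less weight to libraries that stand apart, they were 0.71 for Cdkn1c, 0.67 for H19, 0.87 for Igf2, 0.61 for Dlk1 and 0.48 for Plagl1, so that the sign turned for Cdkn1c, H19 and Dlk1. In none of the 4 comparisons were the groups of a member free of overlap, beside 1.36% of genes tested for genotype without laser, 0.147% for genotype with laser, 6.25% for laser in wild type and 2.13% for laser in Ceacam1-/- mice. Mest was lower in both runs (-0.56 and -0.77) and Peg3 higher in both (0.47 and 0.37).

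**Figure D3:**
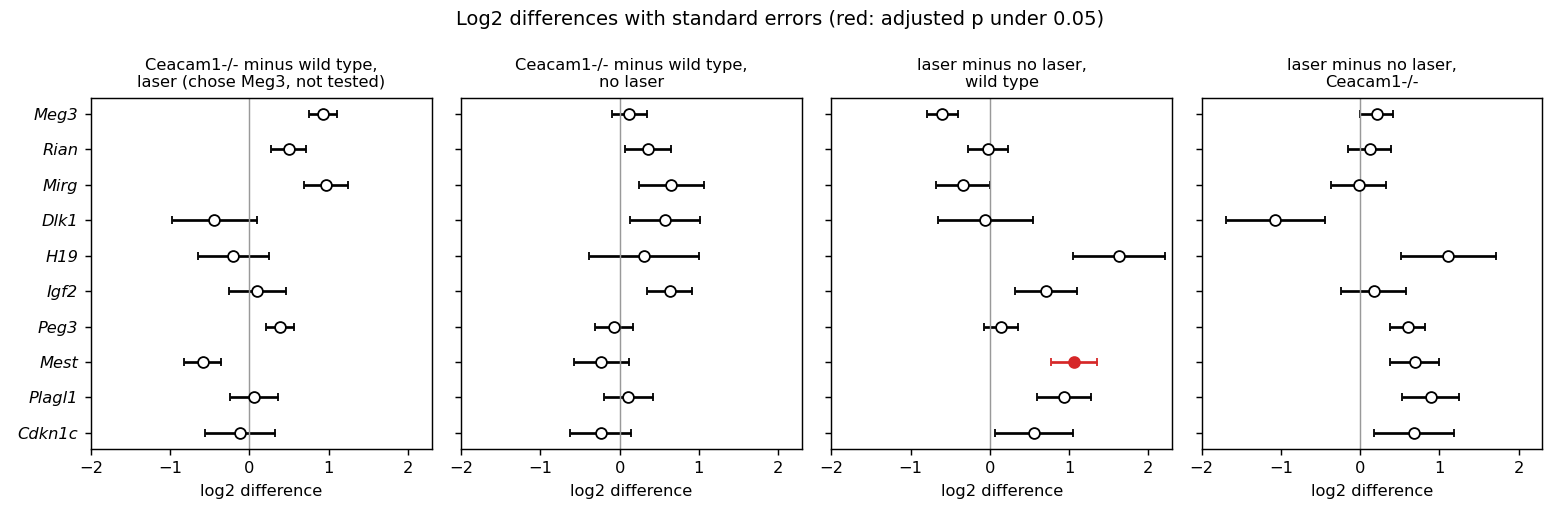
Log2 differences of the 10 genes on the log2(value + 1) scale, with standard errors as bars, for the genotypes with laser, the genotypes without laser, and laser in each genotype. Red marks an adjusted p under 0.05; in the first panel no gene was tested, and Meg3 was not tested in the laser panels. Mest at 1.06 in wild type was the one point past the threshold.

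Markers of several cell types moved with these genes. Over the 24 libraries, after centring on group, Pearson's r with the summed fibroblast and sclera markers was 0.95 for Cdkn1c, 0.78 for H19 and Plagl1, 0.75 for Dlk1 and 0.73 for Igf2, and with the summed photoreceptor markers it was between -0.46 and -0.80 for these 5. With the summed inner retina neuron markers it was between -0.52 and -0.84, lowest for H19. Other marker sets gave r as high or higher for 3 of them, 0.88 for Dlk1 with the endothelial and the melanocyte markers, 0.88 for H19 with those of smooth muscle and pericytes and 0.84 for Igf2 with the myeloid markers. After centring on the run of library numbers too, r with the fibroblast markers was 0.87 for Cdkn1c, 0.52 for H19, 0.46 for Plagl1, 0.29 for Dlk1 and 0.10 for Igf2. With the inner retina neuron markers it was then -0.80 for Cdkn1c, -0.77 for H19, -0.56 for Igf2, -0.32 for Dlk1 and -0.14 for Plagl1. With the photoreceptor markers it was between -0.12 (Plagl1) and -0.74 (H19). For Dlk1 it was then 0.72 with the endothelial and 0.64 with the melanocyte markers. It was 0.75 for H19 with the smooth muscle and pericyte markers and 0.38 for Igf2 with the myeloid markers. For Mirg, r after centring on group was 0.48 with the endothelial, -0.58 with the photoreceptor and -0.52 with the inner retina neuron markers. With the run centred too these were 0.52, -0.59 and -0.54. Peg3 had -0.58 and then -0.80 with the endothelial markers, and Mest 0.48 and then 0.51 with the pigment epithelium markers. Rian lay between -0.24 and 0.10 with all marker sets after centring on group. The points are all from 1 table normalized together, and the part of cell composition in the differences was not tested.

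For Meg3, r was -0.05 with the fibroblast markers and -0.10 with the photoreceptor markers, and -0.22 with the latter after centring on the run too. It was -0.41 with the muscle progenitor, -0.35 with the melanocyte, -0.30 with the pigment epithelium and -0.24 with the skeletal muscle markers, and -0.42, -0.44, -0.20 and -0.24 after centring on the run too. The Schwann and nerve markers (6 genes, Mbp the most abundant) reached 563279 in a Ceacam1-/- library without laser, and r of Meg3 with them was -0.08.

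**Figure D4:**
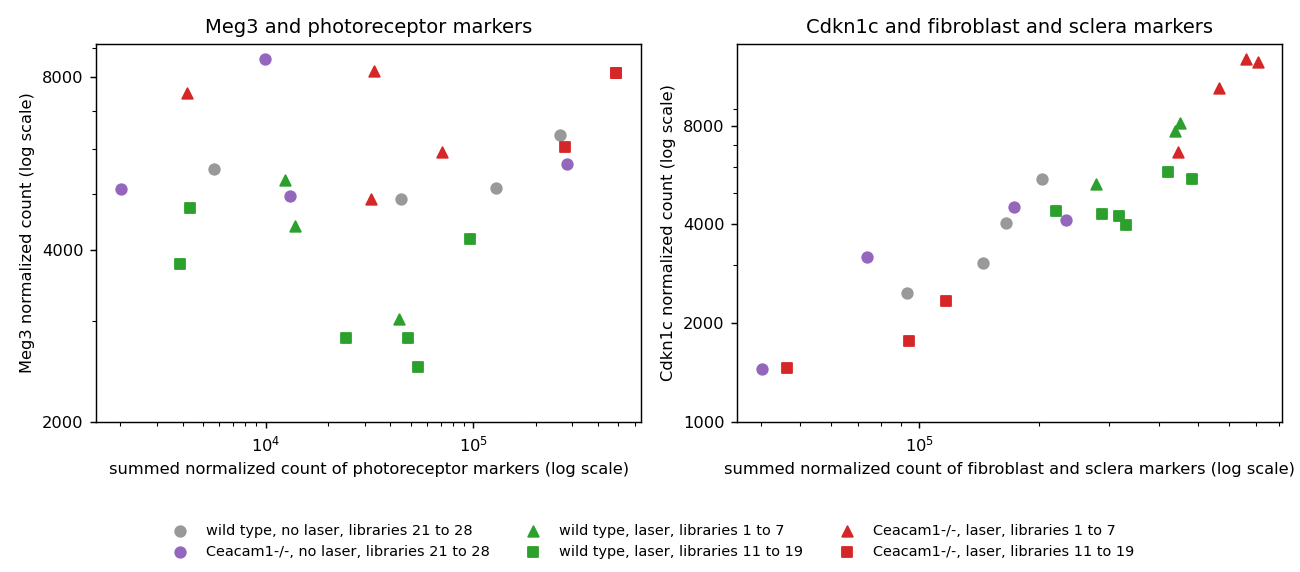
Meg3 against the summed normalized counts of 7 photoreceptor markers, and Cdkn1c against those of 8 fibroblast and sclera markers, each point 1 of 24 libraries, on log axes. After centring on group, r was -0.10 in the first panel and 0.95 in the second, where the fibroblast sums ranged from 40238 to 706396.

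The 10 genes fell into groups by how they varied around their group means. After centring on group, Meg3 varied with Rian (r = 0.66, n = 24 libraries) and Mirg (0.56), which ranked 28 and 172 of 19949 genes by their r with Meg3. With the 7 other members, r of Meg3 was between -0.28 and 0.22. H19, Igf2, Cdkn1c, Dlk1 and Plagl1 formed a second group with r of 0.55 to 0.86 among themselves. Mirg varied with both groups, with r of 0.53 with Rian, 0.47 with H19 and with Igf2, 0.43 with Cdkn1c, 0.36 with Dlk1 and 0.28 with Plagl1. Centred on the run of library numbers too, r of Mirg was 0.55 with Igf2 and 0.50 with Rian. When the run of library numbers was centred as well, r of Meg3 was 0.62 with Rian and 0.58 with Mirg, whereas that of H19 with Igf2 went from 0.80 to 0.49, of Igf2 with Cdkn1c from 0.86 to 0.41 and of H19 with Plagl1 from 0.55 to 0.05. Other pairs rose, Meg3 with Plagl1 from 0.19 to 0.43, Meg3 with Igf2 from 0.11 to 0.39 and Rian with Plagl1 from 0.27 to 0.50, so that the groups were less distinct. These values describe libraries that share a normalization and differ in their cell content.

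**Figure D5:**
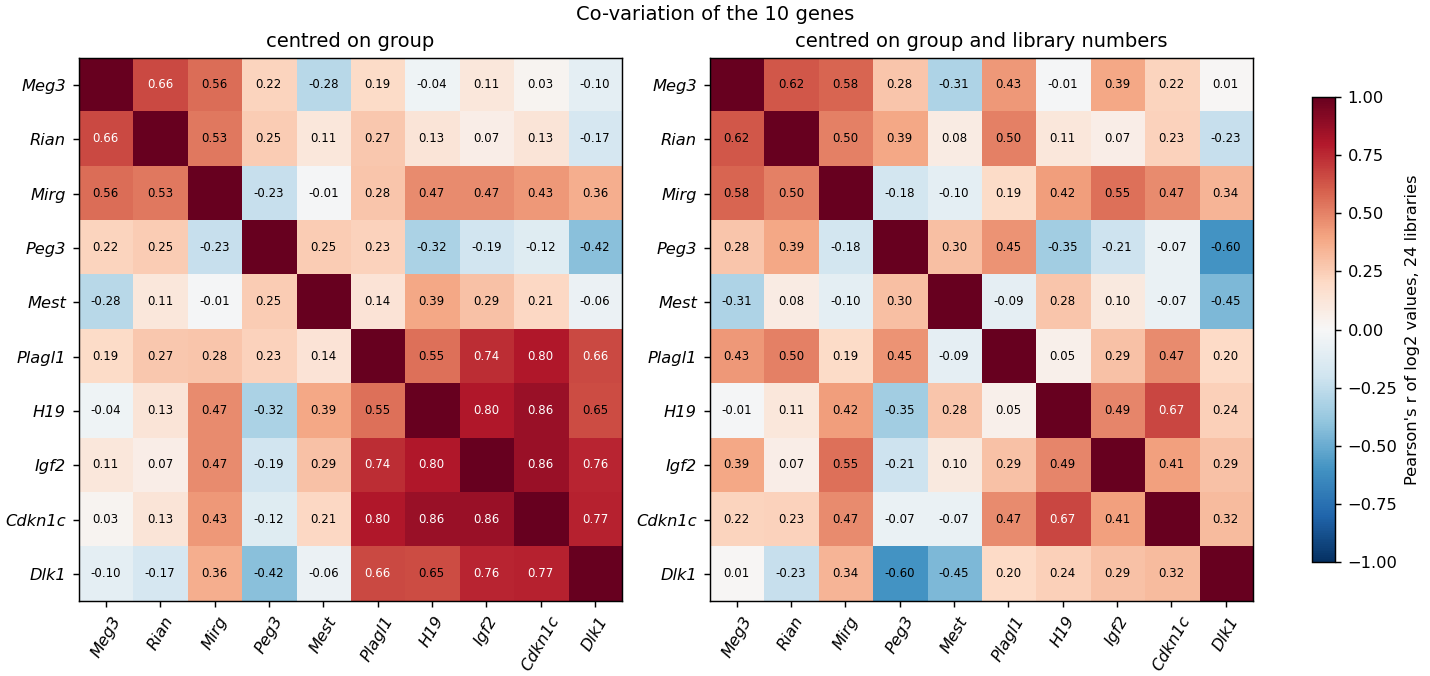
Pearson's r between the 10 genes over 24 libraries, of log2 values centred on group (left) and on group and run of library numbers (right). Red is positive and blue negative; the block of Plagl1, H19, Igf2, Cdkn1c and Dlk1 is paler on the right, and r of Meg3 with Rian and Mirg is 0.66 and 0.56 on the left and 0.62 and 0.58 on the right.

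The genes most like Meg3 by the same measure were mostly outside the imprinted set. Among the 10 with the highest r were Mettl25b (0.80), Clk1 (0.79), a kinase of splicing factors, the processed pseudogene Gm16209 (0.78), Kmt2b (0.77), a histone H3 lysine methyltransferase, Agap2 (0.76), Gm37238 (0.72), Gm37566 (0.71), B830012L14Rik (0.69) and Gm43511 (0.69). Of these, B830012L14Rik is the one that lies in the Dlk1 to Dio3 interval. Centred on the run of library numbers as well, r was between 0.65 and 0.87 for these 9.

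Compared per kilobase of the canonical transcript, which sets genes of unlike length on one scale, Meg3 had the highest mean level of the 10 in 3 groups, although in Ceacam1-/- with laser Meg3 and Cdkn1c lay within 1 SD of each other. Without laser its normalized counts per kilobase were 3307 ± 380 for wild type and 3671 ± 1032 for Ceacam1-/- libraries (SD, n = 4 each). With laser they were 4218 ± 810 (SD, n = 7) for Ceacam1-/- and 2248 ± 598 (SD, n = 9) for wild type libraries. Cdkn1c was at 3550 ± 2638 (SD, n = 7) in Ceacam1-/- with laser, where its range was 3454 to 6605 in libraries 4 to 7 and 754 to 1207 in the other run, against 2957 to 4951 and 3657 to 4920 for Meg3. In wild type with laser, Mest (4115 ± 1365 SD, n = 9) and Cdkn1c (2845 ± 792 SD, n = 9) stood above Meg3, and Cdkn1c and Meg3 lay within 1 SD of each other. Without laser in wild type, Mest (1958 ± 606 SD, n = 4) and Cdkn1c (1953 ± 691 SD, n = 4) could not be ordered. The counts of a gene cover all its transcripts, of which 85 are annotated for Meg3, while 1 length (1656 bases for Meg3) was used. The order of the genes depends on that choice.

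H19 was the fourth in each group, from 551 ± 279 (SD, n = 4) in wild type without laser to 1715 ± 1192 (SD, n = 7) in Ceacam1-/- with laser. Peg3 (294 to 444) and Igf2 (163 to 339) followed in each group by mean, with Plagl1 and Rian in the next places. With laser, Igf2 and Plagl1 lay within 1 SD of each other, at 260 ± 61.4 and 253 ± 83.7 (SD, n = 9) in wild type. In Ceacam1-/- with laser they were at 339 ± 212 and 295 ± 163 (SD, n = 7), means that pool both runs. In its first run Igf2 (mean count 1850, 3708 bases) was above Peg3 (3739, 8751 bases) per kilobase. In its second run Igf2 (468) was below Rian (551, 3223 bases). By group mean, Dlk1 was ninth, between 71.0 and 110, and Mirg the lowest, between 15.9 and 31.7. In the Ceacam1-/- libraries with laser of the second run this order turned. Dlk1 had the lower mean normalized count there (77.2 against 95.9) and the longer transcript (4485 against 3797 bases). Plagl1 and Rian, at 143 ± 43.9 and 150 ± 47.9 (SD, n = 4) in Ceacam1-/- without laser, could not be ordered there.

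Other imprinted genes were examined as a list of 49, of which 47 were in the table and 41 passed the filter on low values in the fits without laser and of laser. Without laser between genotypes, 0 were called by limma and 0 had an unadjusted p under 0.05, beside 0.0% and 1.53% of all genes tested, and the median log2 difference was 0.05, beside -0.02 over all genes. Kcnq1ot1, the long antisense RNA that silences the domain of Cdkn1c on the paternal copy, had the lowest p (4219 ± 1221 against 2877 ± 669, SD, n = 4 each, limma, adjusted p = 0.999).

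With laser in wild type, 2 of 41 other imprinted genes were higher and 0 lower, beside 4.23% and 1.05% of all genes tested. Igf2r, the receptor that takes up IGF2 for degradation, was between 1190 and 1631 with laser and between 535 and 932 without, so that the groups did not overlap (log2 difference 1.07, SE 0.23, limma, adjusted p = 0.00703). H13, a signal peptide peptidase, was between 2567 and 4619 with laser and between 1950 and 2241 without (0.69, SE 0.20, limma, adjusted p = 0.0418). In all, 4.50% of genes were higher without overlap in this contrast. In Ceacam1-/- mice 1 of 41 was called, beside 3.72% of all genes. This was Ins2, an insulin gene next to Igf2, which was between 12.8 and 218 with laser and between 201 and 1320 without (-2.25, SE 0.61, limma, adjusted p = 0.0403).

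Genes of the IGF2 axis, 16 in all and all tested, were counted likewise. With laser in wild type 4 were higher and 0 lower, with a median log2 difference of 0.54 beside -0.10 over all genes, of which 4.23% were called higher and 1.05% lower. Besides Igf2r they were Igf1, the related growth factor (4282 ± 1177 with laser, n = 9, against 1085 ± 197 without, SD, n = 4, log2 difference 1.95, limma, adjusted p = 0.00131), Htra1, a secreted protease that cleaves IGF binding proteins (1.09, adjusted p = 0.00675), and Igfbp3, a carrier of IGFs (1.31, adjusted p = 0.0424). In Ceacam1-/- mice 2 were higher, Htra1 (1.33, adjusted p = 0.00392) and Igf1 (1.48, adjusted p = 0.0251), and 1 lower, Irs2, an adaptor of insulin and IGF receptors (-0.73, adjusted p = 0.0272), beside 2.07% and 1.65% of all genes tested. Myeloid markers moved alongside, with 7 of 8 called higher with laser in wild type and 4 of 8 in Ceacam1-/- mice. The fibroblast and sclera markers had positive log2 differences for 8 of 8 genes in both genotypes, with medians of 1.05 in wild type (2 called higher) and 1.13 in Ceacam1-/- mice (1 called higher). The skeletal muscle markers had negative differences for 8 of 8 genes in both, with medians of -0.95 and -2.08. In the same order, the medians were -1.36 and 2.26 for photoreceptor, -1.03 and 1.48 for inner retina neuron and -0.01 and -1.25 for pigment epithelium markers. The part of these marker sets in the laser results, Ins2, Irs2, Mest, H19 and Plagl1 included, was not tested. The calls in Ceacam1-/- mice use a spread shared by all 24 libraries. When only the libraries compared were fitted, 36 of 20299 genes were called higher and 2 lower. Igf1 there ranged from 1620 to 6066 with laser and from 761 to 1859 without. Results of the alternatives are not given here for Ins2 and the genes of this list.

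Factors that maintain imprints, such as DNA methyltransferases and their partners, numbered 12 and were all tested. With laser in wild type 1 of 12 was higher, beside 4.23% of all genes. This was Uhrf1, which brings the maintenance methyltransferase to replicating DNA and is high in dividing cells (468 ± 137, n = 9, against 109 ± 94.0, SD, n = 4, log2 difference 2.45, limma, adjusted p = 0.00717). In Ceacam1-/- mice 0 were called and 3 had an unadjusted p under 0.05 (Uhrf1, Ezh2 and Ctcf, limma, adjusted p = 0.115 to 0.161), beside 3.72% and 20.0% of all genes. Without laser 0 were called and 1 had an unadjusted p under 0.05, Smchd1, a chromosomal protein of imprinted domains (limma, adjusted p = 0.999), beside 0.0% and 1.53% of all genes.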

How the data were processed

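Total RNA of choroid had been made into SMART-Seq mRNA libraries, which do not mark strand, and sequenced in pairs. According to the labels and methods, the authors quantified reads with salmon 1.10.3 against GRCm39, imported them with tximport, normalized them in DESeq2 1.44.0 and removed 1 outlier library. The deposited signal values are these normalized counts for 56065 genes in 24 libraries. They are not whole reads, so count models were not used and the read depth behind each value is unknown.

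Groups were taken from the labels. Log2(value + 1) was fitted with limma 3.58.1 (intensity trend) in R 4.3.3 on genes with a mean of at least 10, with Benjamini-Hochberg adjustment over all genes tested and a threshold of 0.05. Genotypes without laser were fitted on 8 libraries, genotypes with laser on 16 and laser effects on 24. The procedure was tested on simulated data. The study counts its unlasered libraries by mice. For libraries with laser no source used here does, so p-values there measure only the spread between libraries. Identifiers (99.1% matched) and GRCm39 positions came from a GENCODE annotation of another release, sequences from RefSeq of GRCm38.p6. Correlations used Pearson's r of log2 values, without p.

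Genes named were the 10 members, Ceacam1, genes of the Dlk1 to Dio3 interval with a mean of at least 10, list genes called (or the 3 of lowest p), the 10 genes most correlated with Meg3 and the markers (1 gene of each is not reported here). Dio3 and its values were added after they were seen. The members and lists were chosen with earlier results of these data known. The alternatives tried were a pseudocount of 10, no filter, quantile normalization, array weights, a Y-linked covariate, fitting only the libraries compared, leaving out each library and, added after the data were seen, the runs of library numbers.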

Additional observations from a re-analysis of the deposited data

Results flagged for a closer look

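By Dixon's test, single libraries stood far from the others of their group in 3 of 44 combinations of gene and group examined, where chance gives about 1 in 20. For Ceacam1, the library labelled Ceacam1-/- number 28 without laser was at 1171 normalized counts, against 405 to 508 in the other 3, and library 19 of wild type with laser was at 8367, against 774 to 1776 in the other 8. For Dlk1, library 26 of wild type without laser was at 582, against 205 to 267 in the other 3. Without library 26, the log2 difference of Dlk1 between genotypes without laser was 0.88 in place of 0.57, and with laser in wild type it was 0.25 in place of -0.06.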

How the results depend on the processing

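The counts of members called depended on the processing. With laser in wild type the count was 1 and became 0 without a filter on low values and with a Y-linked covariate, 4 with array weights and 3 when only the libraries compared were fitted. It was 3 with laser libraries 1 to 7 and 0 with laser libraries 11 to 19, and between 0 and 1 when 1 library was left out. With laser in Ceacam1-/- mice the count was 0 and became 4 with array weights, 4 with laser libraries 1 to 7 and 2 with laser libraries 11 to 19. The causes were not tested. Between genotypes without laser it was 0 under all 13 alternatives. Over all genes tested, the calls with laser in wild type went from 1053 to 6505 with array weights and 2274 when only the libraries compared were fitted, and to 479 at the lowest with 1 library left out. With laser in Ceacam1-/- mice they went from 742 to 437 without a filter, 3551 with array weights and 38 when only the libraries compared were fitted, to 148 to 2488 with 1 library left out, and to 1464 and 2907 with the first and second run of library numbers. Between genotypes with laser they went from 4 to 297 with array weights, 3863 with the run of library numbers as a term, 0 and 7552 within the first and second run, and up to 61 with 1 library left out. Between genotypes without laser they went from 0 to 1 with array weights and with 1 library left out.

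The log2 difference of Meg3 between genotypes with laser lay between 0.86 and 1.04 over 21 alternatives, and that of wild type with laser from wild type without between -0.67 and -0.52 over 19. In Ceacam1-/- mice the difference with laser was 0.13 to 0.39 when 1 library was left out, highest without library 28. With laser libraries 1 to 7 the difference in wild type was -0.40 and that in Ceacam1-/- mice 0.14, and with libraries 11 to 19 they were -0.69 and 0.32. Between genotypes without laser Meg3 lay between -0.06 and 0.20 when 1 library was left out.

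Other log2 differences changed sign under some alternatives. Between genotypes without laser, array weights gave 0.06 for Peg3 and 0.24 for Cdkn1c. Leaving out 1 library gave -0.18 to 0.92 for H19, -0.22 to 0.08 for Peg3, -0.49 to 0.02 for Mest, -0.03 to 0.35 for Plagl1 and -0.43 to 0.11 for Cdkn1c. With laser in wild type, quantile normalization gave 0.02 for Rian and 0.0 for Dlk1, the Y-linked covariate gave 0.01 for Rian, and laser libraries 1 to 7 gave 0.44 for Rian and 0.05 for Dlk1. Leaving out 1 library gave -0.17 to 0.09 for Rian and -0.25 to 0.25 for Dlk1. With laser in Ceacam1-/- mice, array weights gave -0.01 for Rian and 0.05 for Mirg, laser libraries 1 to 7 gave 0.12 for Mirg and 0.14 for Dlk1, and laser libraries 11 to 19 gave -0.26 for H19, -0.97 for Igf2 and -0.74 for Cdkn1c. Leaving out 1 library gave -0.09 to 0.30 for Rian, -0.29 to 0.26 for Mirg and -0.01 to 0.43 for Igf2. Between genotypes with laser, array weights gave 0.61 for Dlk1, 0.67 for H19 and 0.71 for Cdkn1c in place of -0.44, -0.20 and -0.12, and the run of library numbers as a term gave -0.19 for Igf2 and -0.13 for Plagl1 in place of 0.10 and 0.06. Leaving out 1 library gave -0.42 to 0.05 for H19, -0.09 to 0.36 for Igf2, -0.11 to 0.24 for Plagl1 and -0.35 to 0.17 for Cdkn1c. The runs of library numbers were chosen after the data were seen.

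No paired analysis was possible because library numbers are not shared between groups. The read depth is unknown, sex was not given by the labels, and groups of 4 libraries limit what the comparison without laser can detect.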
